A study of Mus musculus with 6 samples.

Results

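Interleukins are secreted proteins by which blood, immune and tissue cells signal to each other, and interleukin receptors are the membrane proteins that bind them. The 84 genes described here are the protein-coding genes of the table whose symbol begins with Il and a digit, out of 22046 protein-coding genes and 54532 genes in all. They carry 82 different symbols, because Il11ra2 is listed at 3 places. By textbook role 37 are ligands, 40 are receptor subunits, 6 are decoy receptors or antagonists and 1, Il4i1, is an amino acid oxidase named for its induction by interleukin-4.

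The libraries are RNA sequencing of femurs of ovariectomized mice (OVX), whose loss of estrogen is followed by loss of bone, as in women after menopause. The labels give 6 samples in 2 groups of 3, mice given zingerone, which is found in ginger, as a daily oral dose of 100 mg/kg over 8 weeks, and OVX mice given saline, all with the genotype WT. The 3 OVX libraries are described here as libraries 1, 2 and 3, and the zingerone libraries were not analysed here. The sources used here name neither strain nor age. The titles differ by replicate, with 8, 9 and 10 weeks for libraries 1, 2 and 3. The labels also name RAW264.7, a mouse macrophage-like line, as the cell line, while the RNA is said to come from ground femur.

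Most interleukin receptors work as pairs or trios of subunits, so that a ligand acts only on cells that carry the whole set, and several subunits are shared. The gp130 chain serves interleukin-6 and interleukin-11, the common gamma chain serves interleukins 2, 4, 7, 9, 15 and 21, and the accessory protein Il1rap serves interleukins 1, 33 and 36. In bone, interleukins 1, 6 and 17 are known to promote osteoclast formation and interleukins 4 and 10 to restrain it, while interleukin-7 drives the growth of B cell precursors in mouse marrow. Decoy receptors bind a ligand without passing on a signal.

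The table gives FPKM, that is, reads scaled for gene length and for the size of the library, from which whole reads per gene could be recovered. The libraries held 17017907, 16964740 and 16581579 reads. Markers of both bone and marrow were present. All 10 neutrophil and all 10 B cell markers had reads, and so had all 9 osteoblast, all 9 osteoclast and all 8 chondrocyte markers. Library 2 stood apart from the others. The summed FPKM of the chondrocyte markers was 24.8, 561 and 54.0 in libraries 1, 2 and 3, that of the osteoblast markers 2191, 5020 and 1563, and that of the skeletal muscle markers 1192, 97.5 and 762. The series text calls the replicates biological, but no label ties a library to an animal, so the SD below covers the spread between these libraries and may in part be technical.

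Interleukin transcripts were a small and steady part of the femoral RNA. The 84 genes together took 0.152%, 0.152% and 0.147% of reads in libraries 1, 2 and 3, from 25918, 25758 and 24295 reads. A mean of at least 1 FPKM was reached by 41 of them (48.8%), against 53.4% of all protein-coding genes, and 16 (19.0%) had no read in any library, against 22.8%. Receptors were more often above this level than ligands. It was reached by 25 of 40 receptor subunits, 12 of 37 ligands and 4 of 6 decoys and antagonists. The median over all members of the class was 2.25 FPKM for receptors, 0.127 FPKM for ligands and 3.94 FPKM for decoys and antagonists. In bulk tissue, fewer cells of a type and less RNA per cell cannot be told apart.

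**Figure D1:**
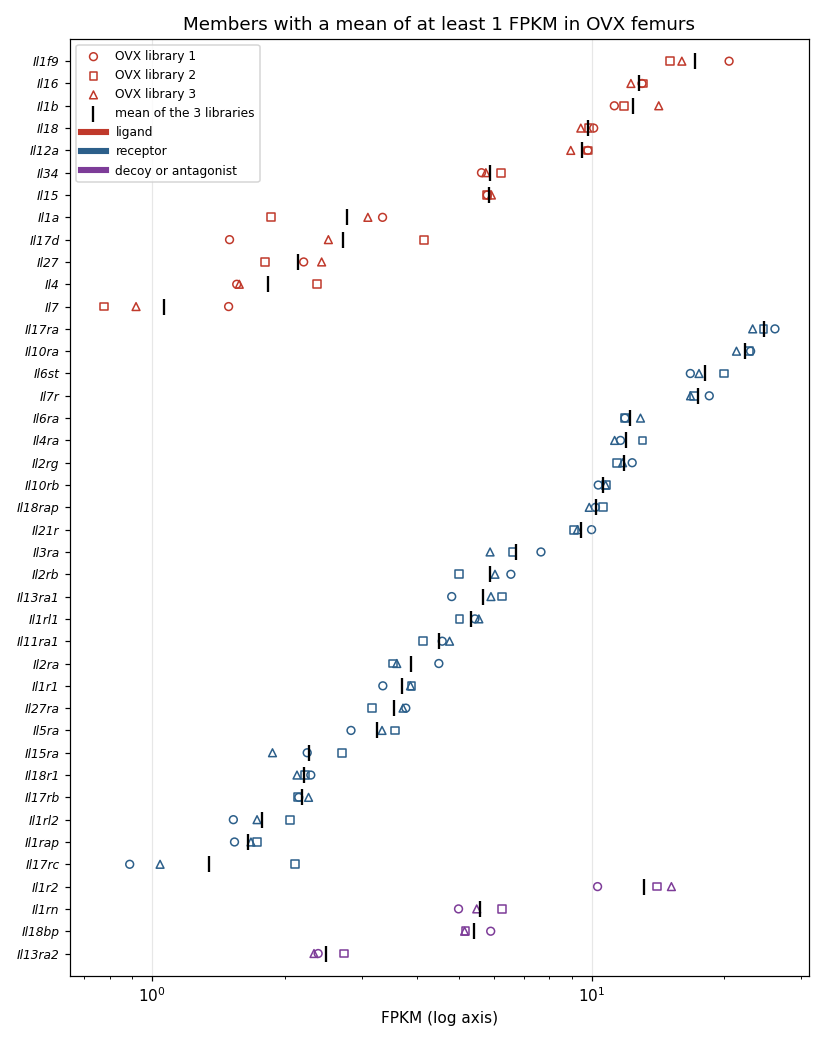
FPKM (log axis) of the 41 members with a mean of at least 1 FPKM, by role. Circles, squares and triangles are OVX libraries 1, 2 and 3 and the black bar is their mean. Most members lie within a narrow band, and Il17d, Il17rc, Il1a and Il7 are spread most widely, from 1.499 to 4.15 FPKM for Il17d.

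Ligands were led by Il1f9, which encodes interleukin-36 gamma, an epithelial and myeloid relative of interleukin-1. It had 20.5, 15.1 and 16.0 FPKM in libraries 1, 2 and 3. Il16, the precursor of a chemoattractant for CD4+ cells, followed with 13.0, 13.1 and 12.3 FPKM. Library 1 was the high one for Il1f9, and the spread of Il16 was narrow. Il1b, the secreted inflammatory interleukin-1, had 11.3, 11.9 and 14.2 FPKM, and its neighbour Il1a had 3.34, 1.86 and 3.09 FPKM. Within a library Il1b was 4.77 ± 1.5045 times as high as Il1a (SD, n = 3), with the widest gap in library 2.

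Il1a and Il1b lie 71.5 kb from end to end on chromosome 2, both on the minus strand, with Il1a at 129299610 to 129309972 in mm10. Their spread between libraries took different forms. Shown are the 300 bases from 250 before to 50 after the start of each gene. They come from RefSeq on GRCm38.p6, the assembly that mm10 names. A link between these sequences and the spread was not tested. The window of Il1a is chr2:129309923-129310222 and that of Il1b chr2:129371090-129371389, both read on the minus strand, with TATAAA and TGANTCA in capitals.
Il1a: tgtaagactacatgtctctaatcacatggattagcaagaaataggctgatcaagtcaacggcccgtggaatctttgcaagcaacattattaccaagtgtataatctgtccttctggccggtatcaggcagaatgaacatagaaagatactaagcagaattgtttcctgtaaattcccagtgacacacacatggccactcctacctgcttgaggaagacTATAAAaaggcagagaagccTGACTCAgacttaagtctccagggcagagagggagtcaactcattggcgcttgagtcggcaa
Il1b: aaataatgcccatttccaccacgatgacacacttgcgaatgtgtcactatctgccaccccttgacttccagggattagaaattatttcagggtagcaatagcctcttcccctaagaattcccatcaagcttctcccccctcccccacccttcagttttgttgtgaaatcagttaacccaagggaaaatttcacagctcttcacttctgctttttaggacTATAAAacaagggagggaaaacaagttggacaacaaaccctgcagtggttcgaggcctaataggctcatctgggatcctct
Both windows hold TATAAA, the core letters of the TATA box, which 13.6% of the 32817 windows in the table hold on either strand. Only the Il1a window holds TGANTCA, the letters of the AP-1 site, which 7.81% of windows hold. Windows were found for 32 of the 41 members above 1 FPKM, and 6 of these 32 hold TATAAA.

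Other ligands above 1 FPKM include cytokines of innate cells. Il18, which drives interferon gamma production, had 10.1, 9.85 and 9.44 FPKM. Il15, which sustains NK cells, had 5.78, 5.78 and 5.91 FPKM, and Il34, an alternative ligand of the CSF-1 receptor that osteoclast precursors use, had 5.61, 6.21 and 5.74 FPKM. These 3 ligands varied by no more than 1.11-fold between libraries. Il12a, the p35 chain of interleukin-12, had 9.80, 9.81 and 8.96 FPKM. Its partner chain Il12b had 1, 3 and 4 reads in libraries 1, 2 and 3, or 0.0810 FPKM on average. Of the pair that forms interleukin-27, Il27 had 2.21, 1.80 and 2.43 FPKM and Ebi3, which also pairs with p35, had 11.6, 11.6 and 15.6 FPKM.

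Il4, the type 2 cytokine, had 1.56, 2.37 and 1.58 FPKM from 33, 49 and 32 reads. Its neighbours on chromosome 11 were at the limit of detection, with 2 reads in all for Il5 and none for Il13, the other type 2 cytokines. For Il13 the limit that 0 reads allow, 3 reads, equals 0.144, 0.148 and 0.151 FPKM in libraries 1, 2 and 3. Il7 had 1.49, 0.776 and 0.918 FPKM, with library 1 highest. Il6, which marrow stroma and macrophages can secrete, had 0.238, 0.367 and 0.249 FPKM from 10, 15 and 10 reads. The exact Poisson 95% intervals ran from 0.114 to 0.438, from 0.205 to 0.605 and from 0.119 to 0.458 FPKM, so that no difference was detectable at this depth.

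Many ligands of the adaptive immune system had few or no reads. Il2, Il3, Il9, Il13, Il17a, Il22, Il25 and Il31 were among the 12 ligands with 0 reads in all 3 libraries, with Il19, Il20, Il1f6 and Il1f10. For Il17a the floor of 3 reads equals 0.148, 0.152 and 0.155 FPKM in libraries 1, 2 and 3, and for Il3 it equals 0.276, 0.283 and 0.288 FPKM. Il11 had 0.115, 0.207 and 0.0601 FPKM from 4, 7 and 2 reads. Il17f had 2, 6 and 5 reads, Il10 had 2, 5 and 5 reads, Il21 had 0, 3 and 0 reads and Il23a had 1, 3 and 0 reads. Il17c, Il33 and Il17b had means of 0.574, 0.457 and 0.429 FPKM, still under 1 FPKM. Il33, an alarm signal of stromal and endothelial cells, had 0.501, 0.494 and 0.377 FPKM. Il24 and Il1f8 had 2 reads and 1 read over the 3 libraries. Il17b had no reads in libraries 1 and 3 and 15 reads, or 1.29 FPKM, in library 2, with an exact Poisson 95% interval from 0.720 to 2.12 FPKM.

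Receptor subunits were led by Il17ra, the chain shared by receptors of the interleukin-17 family, with 26.1, 24.6 and 23.2 FPKM in libraries 1, 2 and 3. Il10ra, the ligand-binding chain for interleukin-10, had 23.0, 22.8 and 21.4 FPKM. The gp130 gene Il6st had 16.8, 20.0 and 17.5 FPKM, and Il7r, which binds interleukin-7 and with Crlf2 also TSLP, had 18.5, 17.1 and 16.8 FPKM. The ranges of Il17ra and Il10ra did not overlap, and those of Il6st and Il7r did. At 24.7 FPKM on average, Il17ra was above 90.4% of protein-coding genes.

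Subunits that share a receptor differed in level. The interleukin-6 chain Il6ra had 11.9, 11.9 and 12.9 FPKM, and Il6st was 1.48 ± 0.171 times as high (SD, n = 3). The common gamma chain Il2rg had 12.4, 11.4 and 11.8 FPKM, or 0.679 ± 0.0187 times Il7r, a ratio that hardly moved between libraries. Il4ra had 11.6, 13.1 and 11.3 FPKM and its partner Il13ra1 4.80, 6.25 and 5.90 FPKM. Il10rb, which Il10ra needs for signalling, had 10.3, 10.8 and 10.8 FPKM, and Il10ra was 2.11 ± 0.118 times as high. Such ratios depend on the listed gene lengths, and their SD holds both counting error and any further spread between libraries.

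Of the partners of Il17ra, Il17rb, which binds interleukin-25, had 2.15, 2.15 and 2.27 FPKM, and Il17rc, which with Il17ra binds interleukins 17A and 17F, had 0.888, 2.11 and 1.04 FPKM. Il17ra was 29.4, 11.7 and 22.3 times as high as Il17rc in libraries 1, 2 and 3. Il17rd and Il17re stayed below 1 FPKM, with means of 0.270 and 0.101. Il17ra was above each of these partners in every library.

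Il21r had 9.99, 9.13 and 9.28 FPKM, and Il2rb and Il2ra, the beta and alpha chains for interleukin-2, had 6.55, 5.00 and 6.02 FPKM and 4.49, 3.52 and 3.60 FPKM. Library 1 was highest for these 3 genes. The 10 T cell markers summed to 41.6, 33.5 and 28.6 FPKM, with Cd4 alone at 19.0, 9.60 and 9.39 FPKM, and of the 8 tested 4 were highest in library 1 and 4 in library 2. The 10 B cell markers summed to 579, 525 and 526 FPKM, and 7 of the 10 were highest in library 1. By contrast, the 8 NK and innate lymphoid markers summed to 13.9, 14.2 and 18.7 FPKM. Of the 6 tested, 2 were highest in library 1 and 4 in library 3. The part of these cells in the result was not tested. Il15ra had 2.25, 2.70 and 1.88 FPKM. The 2 chains for interleukin-12 were below 1 FPKM, at a mean of 0.634 for Il12rb1 and 0.380 for Il12rb2.

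Receptors of myeloid growth and type 2 signals were also present. Il3ra, whose ligand had no reads, had 7.67, 6.60 and 5.87 FPKM, and Csf2rb, the beta chain it pairs with, had 16.9, 19.5 and 18.3 FPKM. Il5ra, a receptor of eosinophils, had 2.83, 3.57 and 3.33 FPKM beside summed eosinophil markers of 2369, 3064 and 2922 FPKM. All 7 eosinophil markers were lowest in library 1, and 6 of them were highest in library 3 and 1, Prg2, in library 2. Il5ra was highest in library 2, and its difference between libraries did not pass the test described below. Il1rl1, the interleukin-33 receptor ST2, had 5.42, 5.00 and 5.54 FPKM and was 11.9 ± 2.45 times as high as Il33 (SD, n = 3). Il27ra, which pairs with gp130 to bind interleukin-27, had 3.78, 3.16 and 3.72 FPKM. In all, 12 receptor subunits had reads but a mean under 1 FPKM, from 0.0021 FPKM for Il1rapl1 to 0.634 FPKM for Il12rb1, with Il31ra, Il20rb, Il20ra, Il9r, Il22ra1 and Il23r among them. Il1rapl2 had no reads, and the enzyme gene Il4i1 had 12 reads over the 3 libraries.

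The interleukin-1 receptor group lies together on chromosome 1. Its 6 genes Il1r2, Il1r1, Il1rl2, Il1rl1, Il18r1 and Il18rap span 478 kb, from 40074079 to 40551705 in mm10, and all had a mean of at least 1 FPKM. The levels within this group ran from 1.77 FPKM for Il1rl2, the interleukin-36 receptor, to 13.2 FPKM for Il1r2. In libraries 1, 2 and 3 Il1rl2 had 1.53, 2.06 and 1.73 FPKM, and Il18r1 had 2.29, 2.23 and 2.13 FPKM. Il18rap, the accessory chain for interleukin-18, had 10.2, 10.6 and 9.87 FPKM and was 4.61 ± 0.161 times as high as Il18r1, the binding chain (SD, n = 3). Il1r1, the signalling receptor, had 3.35, 3.89 and 3.87 FPKM, and Il1rap on chromosome 16 had 1.54, 1.73 and 1.68 FPKM. By contrast, of the 6 members in a 198 kb stretch of chromosome 2 from Il1f8 to Il1rn, 2, namely Il1f9 and Il1rn, were above 1 FPKM and 3 had no reads.

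**Figure D2:**
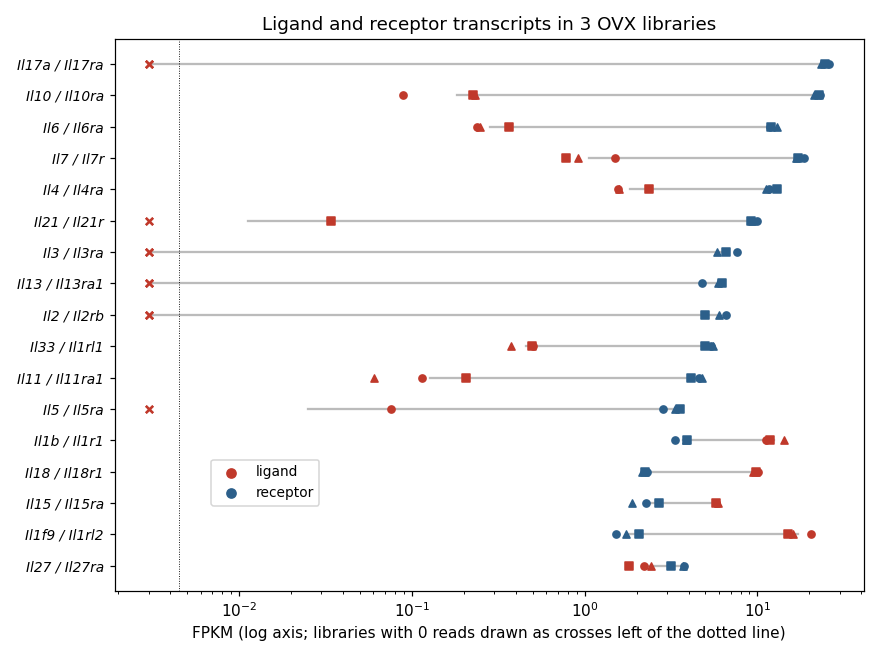
FPKM (log axis) of 17 ligands (red) and a receptor subunit of each (blue), with circles, squares and triangles for OVX libraries 1, 2 and 3 and crosses for libraries with 0 reads. The grey line joins the means. Receptor transcripts exceed ligand transcripts in the upper 12 pairs and in the Il27 and Il27ra pair, while Il1b, Il18, Il15 and Il1f9 exceed the receptor drawn with them.

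Of the 6 decoys and antagonists, 4 had a mean of at least 1 FPKM and 1, Il1f5, had no reads. Il1r2, the decoy for interleukin-1 that is known from neutrophils, had 10.3, 14.1 and 15.2 FPKM and was 3.54 ± 0.427 times as high as Il1r1 (SD, n = 3). Il1rn, the receptor antagonist of interleukin-1, had 4.98, 6.24 and 5.47 FPKM, or 0.451 ± 0.0709 times Il1b. Library 1 was lowest for both. Il18bp, the soluble binder of interleukin-18, had 5.89, 5.16 and 5.14 FPKM, or 0.550 ± 0.0300 times Il18. Il13ra2, the decoy for interleukin-13, had 2.38, 2.73 and 2.33 FPKM, and Il13ra1 was 2.28 ± 0.257 times as high. Il22ra2, the soluble binder of interleukin-22, had 0.410 FPKM on average and its ligand no reads.

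Il11ra1, the alpha chain for interleukin-11, shows how near copies limit a value. It had 4.57, 4.13 and 4.75 FPKM from 353, 311 and 351 reads, while Il11ra2 on chromosome 4 had 0, 2 and 1 reads and its copies on 2 unplaced scaffolds none. The coding sequences of both genes in GENCODE M21 differ at 13 of 1299 bases. The 60 coding bases with the most differences, from base 1030 to 1089 counted from the start codon, are shown with the differing bases in capitals.
Il11ra1: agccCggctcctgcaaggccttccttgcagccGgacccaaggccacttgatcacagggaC
Il11ra2: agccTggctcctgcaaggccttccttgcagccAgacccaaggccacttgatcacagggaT
This stretch holds 3 differences, and reads from stretches without one fit both genes. A further near copy, Gm13305, also differs from Il11ra1 at 13 of 1299 coding bases, and its reads are not given here. The sources used here do not say how reads that fit several places were counted. The values of Il11ra1 and Il11ra2 are therefore uncertain. The listed span of Il11ra1 also overlaps 6 other protein-coding genes, among them Dctn3 with 2041 reads.

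Between the 3 OVX libraries, 18 of the 41 members tested differed beyond counting noise. Reads were set against library totals by a chi-square test, whose p-values were adjusted by Benjamini-Hochberg over all 14011 genes that averaged 1 FPKM or more, with a threshold of 0.05. This is 43.9% of the members tested, near the 38.7% of all tested genes. The 18 comprise 11 of 25 receptor subunits, 5 of 12 ligands and 2 of 4 decoys and antagonists. Without library 1 it was 9 of 40 members, where 24.9% of all tested genes passed. Without library 2 it was 8 of 40, where 2527 of 14045 genes passed, and without library 3 it was 14 of 41, where 29.8% passed. The test compares libraries, not conditions, and calls genes with many reads more easily. Spread between highest and lowest library was at least 1.5-fold for 5 members, or 12.2% of those tested, against 17.9% of all tested genes, and its median was 1.16-fold for members and 1.15-fold for all tested genes.

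The widest spread was that of Il17d, a ligand of the interleukin-17 family. It had 1.499, 4.15 and 2.52 FPKM in libraries 1, 2 and 3, a 2.77-fold range from 33, 89 and 53 reads (chi-square test, adjusted p = 9.03e-06). Il17rc spanned 2.38-fold, from 41, 95 and 46 reads (adjusted p = 4.82e-06 in the same chi-square test). For both genes library 2 was highest. It was also highest for all 8 chondrocyte markers tested, with Col2a1, the collagen of cartilage, at 17.1, 165 and 12.4 FPKM. The same held for all 9 osteoblast and all 8 osteoclast markers tested, while the summed muscle markers were lowest in library 2. Library 2 was likewise highest for 6 of 7 adipocyte, 4 of 7 stromal and 3 of 5 osteocyte markers tested. It was highest for 0 of 7 megakaryocyte and 0 of 9 erythroid markers tested, and for 34.8% of all tested genes. The part of these cells in the result was not tested. Without library 2 the gene Il17d did not pass the test. Il17rc then averaged 0.965 FPKM, below the minimum mean of 1 FPKM, and was not tested. It thus entered the main test only through library 2, where it was highest.

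Windows around the starts of these genes are shown as above, from RefSeq on GRCm38.p6, at chr14:57524579-57524878 for Il17d and chr6:113471205-113471504 for Il17rc, both on the plus strand. Capitals mark GGGCGG, the core letters of the Sp1 site, found at 2 overlapping places in the Il17rc window.
Il17d: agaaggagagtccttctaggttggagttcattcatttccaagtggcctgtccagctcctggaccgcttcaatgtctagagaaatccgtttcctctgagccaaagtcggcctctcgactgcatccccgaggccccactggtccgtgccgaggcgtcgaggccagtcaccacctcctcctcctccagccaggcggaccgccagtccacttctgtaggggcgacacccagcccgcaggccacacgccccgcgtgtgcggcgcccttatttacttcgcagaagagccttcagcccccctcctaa
Il17rc: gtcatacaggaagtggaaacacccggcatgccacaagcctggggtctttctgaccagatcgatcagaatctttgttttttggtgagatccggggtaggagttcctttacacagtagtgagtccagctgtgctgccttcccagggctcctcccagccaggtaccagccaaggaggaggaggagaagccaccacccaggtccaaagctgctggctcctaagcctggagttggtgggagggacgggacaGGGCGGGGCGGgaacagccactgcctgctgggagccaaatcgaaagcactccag
GGGCGG is in 35.6% of all windows on either strand. The Il17d window holds none of the 3 motifs but 19 CG dinucleotides, against a median of 7 over all windows and 7 in the Il17rc window. A link between these sequences and the spread was not tested.

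Other members that differed with library 2 highest were Il6st, Il4ra, Il13ra1, Il1rn, Il15ra and Il1rl2, over ranges of 1.16-fold to 1.44-fold. None of these 6 passed the test without library 2, and Il1a and Il2rb, which were low in library 2, did not pass without it either. Il6st, with 3216, 3735 and 3220 reads, reached 20.0 FPKM in library 2 against 16.8 and 17.5 FPKM in libraries 1 and 3 (chi-square test, adjusted p = 7.64e-10). Library 2 was lowest for Il1a, Il7, Il1f9, Il2rb and Il2ra. Il7 spanned 1.92-fold (chi-square test, adjusted p = 6.62e-06) and Il1a 1.79-fold, from 114, 62 and 101 reads (adjusted p = 0.00152 in the same chi-square test). Neighbouring Il1a and Il1b did not move together, since Il1b was highest in library 3 and lowest in library 1 (chi-square test, adjusted p = 0.0118).

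Il1r2 and Il1f9, both of the interleukin-1 family, differed in opposite directions. Il1r2 was lowest in library 1, at 10.3 FPKM against 14.1 and 15.2 FPKM in libraries 2 and 3 (chi-square test, adjusted p = 4.55e-06), whereas Il1f9 was highest there, at 20.5 FPKM against 15.1 and 16.0 FPKM (adjusted p = 9.38e-07 in the same chi-square test). The 10 neutrophil markers summed to 24180, 26397 and 24598 FPKM and the 10 markers of monocytes and macrophages to 733, 723 and 734 FPKM. Of the neutrophil markers 5 were highest in library 1 and 5 in library 2, and of the monocyte and macrophage markers 5, 2 and 3 were highest in libraries 1, 2 and 3. Csf1r, the CSF-1 receptor of monocytes and macrophages, spanned 1.40-fold. The part of these cells in the result was not tested. Il17ra, Il7r and Il3ra were highest in library 1 and lowest in library 3. The ranges were small for Il17ra and Il7r, at 1.12-fold and 1.10-fold, and 1.31-fold for Il3ra. Without library 1 the genes Il17ra, Il7r, Il3ra, Il1r2, Il1f9 and Il2ra did not pass the test, nor did Il13ra1, Il1rn and Il1rl2. Il7 then averaged 0.847 FPKM, below the minimum mean of 1 FPKM, and was not tested. It thus entered the main test only through library 1, where it was highest. Without library 3 the genes Il3ra, Il1b, Il15ra and Il4ra did not pass the test.

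**Figure D3:**
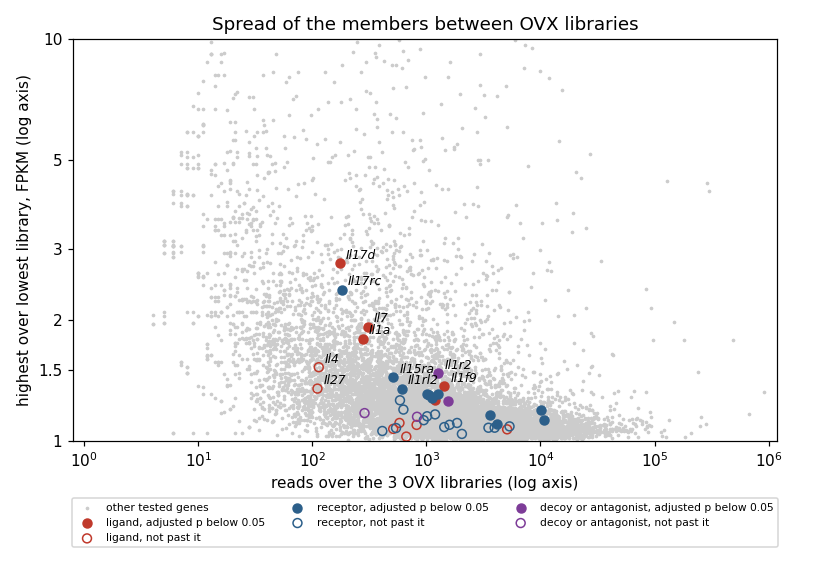
Highest over lowest OVX library in FPKM against reads over the 3 libraries, both on log axes, for the 41 members tested (coloured by role, filled where the adjusted p is below 0.05) and the other tested genes (grey). The 230 other genes above 10-fold or with 0 FPKM in a library are not drawn. Members lie within the cloud of all genes, with Il17d at 2.77-fold and Il17rc at 2.38-fold as the highest.

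**Figure D4:**
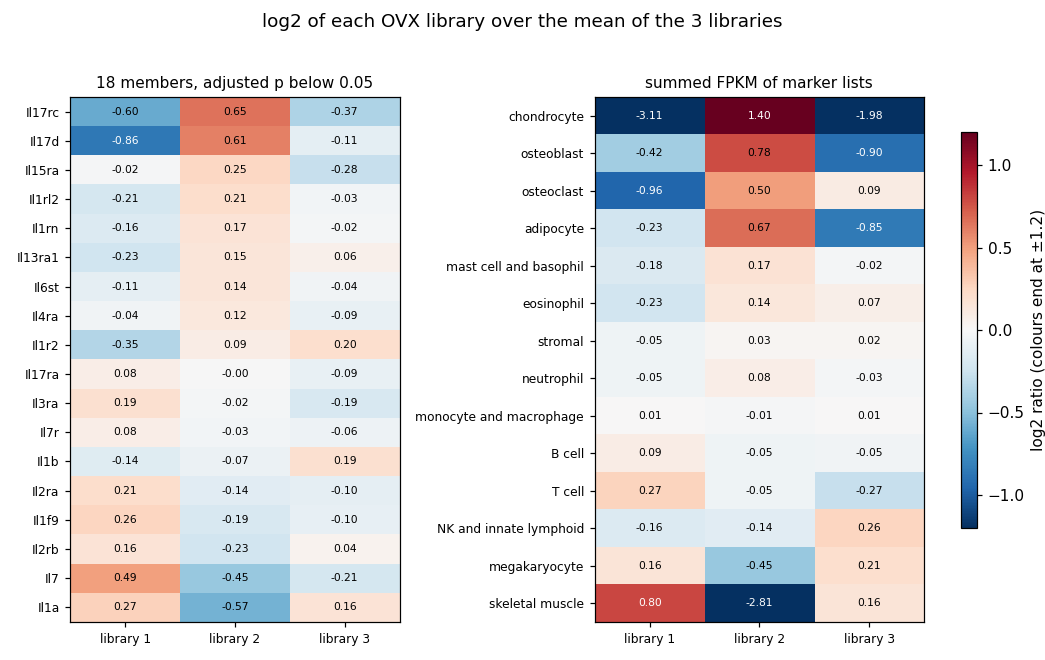
Log2 of each OVX library over the mean of the 3 libraries, for the FPKM of the 18 members with an adjusted p below 0.05 and for the summed FPKM of 14 marker lists. Chondrocyte markers reach 1.40 in library 2 against 0.65 for Il17rc and 0.61 for Il17d, while Il1a is lowest there at -0.57.

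The 23 members tested that did not pass the threshold include Il10ra, Il16, Il10rb, Il18, Il18rap, Il12a and Il15. Il15 had the narrowest range of all tested members, 1.02-fold from 226, 220 and 221 reads (chi-square test, adjusted p = 0.967), and Il10rb followed with 1.04-fold (adjusted p = 0.947 in the same chi-square test). For 10 of the 41 members the spread between libraries was no wider than counting noise. The median variation beyond that noise was 5.59% (CV) for the tested members and 5.12% for all tested genes.

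The same pathways hold genes outside the naming rule, such as kinases, transcription factors and partner chains. Of a list of 48 genes of the same pathways, 43 had a mean of at least 1 FPKM and 23 of these differed between libraries by the same test, against 38.7% of all tested genes. In all, 12 were highest in library 1, 16 in library 2 and 15 in library 3 among the genes tested. The count that differed was 12 without library 1, 15 without library 2 and 14 without library 3, and the shares of all tested genes in these fits are those given above for the members. Among the kinases Jak1 had 45.8, 44.3 and 44.9 FPKM and Jak2 29.3, 28.0 and 31.7 FPKM, and Stat6, which Il4ra activates, had 36.2, 36.7 and 37.3 FPKM. Stat3, the main target of gp130, had 17.7, 19.1 and 18.6 FPKM. The range between libraries was no more than 1.13-fold for any of these 4 genes.

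The median range over the list was 1.17-fold. The genes given next, only some of them with clearly wider ranges, were chosen after their values were seen. Socs3, an inhibitor that gp130 signals induce, had 4.40, 9.79 and 9.06 FPKM, a 2.22-fold range (chi-square test, adjusted p = 8.36e-22). The other Socs genes ranged from 1.14-fold for Socs7 to 1.67-fold for Socs2. Lifr, the gp130 partner for leukemia inhibitory factor, had 6.18, 14.5 and 8.50 FPKM, a 2.34-fold range with library 2 highest (chi-square test, adjusted p = 1.20e-142). Osmr, the partner for oncostatin M, had 1.01, 1.71 and 1.47 FPKM, also with library 2 highest, and its ligand Osm had 5.196, 4.83 and 5.67 FPKM. Of the interleukin-1 side, Myd88, the adaptor of these receptors, had 17.3, 20.7 and 19.0 FPKM. Casp1, which cleaves the precursors of Il1b and Il18, had 20.1, 19.4 and 17.1 FPKM, and the sensor Nlrp3 had 4.32, 4.52 and 5.31 FPKM. Ranges were 1.17-fold for Osm, 1.18-fold for Casp1, 1.19-fold for Myd88 and 1.23-fold for Nlrp3. Of these genes Myd88 alone passed the test.

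Overlapping genes limit some of these values, since the sources used here do not give whether counting used strand. Of the 41 members tested, 22 overlap another gene, and 4 overlap a gene with more reads than their own. The listed span of Il18bp, with 828 reads over the 3 libraries, overlaps that of Numa1 with 14247 reads. That of Il27, with 111 reads, overlaps that of Apobr with 4329 reads. These are reads of whole genes, and the length of each overlap was not measured. Il17rb overlaps Actr8 and Il11ra1 overlaps Dctn3. The antisense gene over Il1b, Il1bos, had 31 reads against 1200 for Il1b.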

How the data were processed

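Femoral RNA of 3 OVX libraries was analysed. FPKM values per gene were deposited by the authors. The submitters' processing notes name FastQC, Trimmomatic, STAR, featureCounts and mm10, with no versions or settings. The names of 3 further value columns match no label, so those columns were not used, and the planned comparison of zingerone with OVX libraries by limma was not run.

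Reads per gene were recovered from the deposited FPKM and gene lengths. In each library 100.0% of values were whole within 0.01 read, and totals were 16581579 to 17017907 reads. The libraries used form 1 group, so no test between groups was run. For genes that averaged 1 FPKM or more, a chi-square test set the recovered reads of the libraries against their totals, with Benjamini-Hochberg adjustment over 14011 genes and a threshold of 0.05. Intervals are exact Poisson 95% intervals, and they and the floor of 3 reads cover counting error only.

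Members and gene lists were chosen with earlier results of these data known. Values in every library are given for members that differed between libraries, the 12 highest and the main receptor families, and for the ligands of receptors so described. Genes named outside this rule were chosen after their values were seen. Alternatives were another filter, other scaling factors and leaving out each library. Calculations used scipy 1.17.1 with pandas 2.3.3 and numpy 2.4.6 under Python 3.11.15, and plots matplotlib 3.10.9.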

Additional observations from a re-analysis of the deposited data

How the results depend on the processing

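The number of members that differed between OVX libraries was 18, and 19 with no filter on low values, without Il1rl2 and with Il17b and Il17re (22.4% of all genes tested then). It was 11 of 24 with a minimum mean of 5 FPKM, where 44.9% of all 8436 genes tested passed. No member then reached 1.5-fold (0, against 5), because Il17d, Il17rc, Il7, Il1a and Il4 all averaged under 5 FPKM and were removed. With median-of-ratios factors or the totals behind the deposited FPKM it stayed at 18, but Il7r no longer passed the test and Il6ra did. Leaving out each library gave 8 to 14 members, as the share of all genes that passed fell too (24.9% without library 1, 2527 of 14045 genes without library 2 and 29.8% without library 3), with 12 to 15 pathway genes, against 23, and 2 to 5 members of at least 1.5-fold. Fewer reads enter each of these fits. For a given gene, a range over fewer libraries cannot be wider than that over all 3. The share of all genes at 1.5-fold or more under these settings is not given here. The members with a mean of at least 1 FPKM numbered 40 to 41. No paired analysis was possible because the libraries used form 1 group. Other settings for zingerone against OVX (pseudocounts, filters, scaling, left-out libraries, replicate block and voom) were not run. Depth limits members with few reads: 10 had 1 to 10 reads in all and 16 had none.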
